A study of Mus musculus with 28 samples.

Results

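Complement genes were described in RNA sequencing of ventricular myocardium, the muscle of the main pumping chambers, from 28 male C57BL/6 mice. The 9 genes were chosen by name as members of the cascade: the C1q chain genes C1qa, C1qb and C1qc, the central components C4b and C3, the terminal component C7, the inhibitor Serping1, and the receptors C3ar1 and C5ar1. All 9 were found among the 45513 rows of the count table, and all 9 were among the 24273 genes that passed a filter on low counts. Chronic kidney disease (CKD) was modelled by 5/6 nephrectomy, a removal of most kidney tissue in 2 operations begun at 6 weeks of age, and the other mice were sham operated. Every mouse, controls included, ate a diet with 1% added hydroxyproline, which is metabolised to oxalate, and 0.5% calcium. On day 7 each mouse was gavaged with Oxalobacter formigenes (Oxf), a gut bacterium that degrades oxalate, or with 200 µl of culture medium (vehicle). The vehicle groups were sham-vehicle (10 mice) and CKD-vehicle (6), and the Oxf groups sham-Oxf (5) and CKD-Oxf (7). The age at tissue collection was not given in the sources used here. The design planned 10 mice in each group, and the remaining mice were not analysed here. Each library came from its own mouse, and replicate numbers only name the mice.

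Complement is a protein cascade that tags cells and debris for removal. In the classical pathway C1q binds immune complexes or dying cells, C4 and then C3 are cleaved and deposited, and the terminal components, C7 among them, assemble a membrane pore. Small fragments released from C3 and C5 act on the receptors encoded by C3ar1 and C5ar1, and C1 inhibitor, the product of Serping1, blocks the proteases that start the pathway. The liver makes most circulating C3 and C4, while macrophages are a main source of C1q, and fibroblasts and other stromal cells also make complement proteins locally.

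Libraries held 19.8 to 65.4 M counts (M for mega), and 1 of them stood apart. The smallest, sham-Oxf replicate 1, held 19.8 M counts in 15879 genes, against 27128 to 33995 in the other 27 libraries. Most results that rest on it are given with and without it. Cardiomyocyte markers were abundant in every library, summing to between 16907 and 43139 CPM (counts per M counts of the library) over 7 genes, as the tissue label states. Macrophage markers summed to between 159 and 242 CPM over 12 genes, and none was at 0 throughout. Hepatocyte markers summed to a median of 17.7 CPM in sham-vehicle and 11.8 in CKD-vehicle over 8 genes. A score of clock genes, the mean log2 CPM of a list that includes Dbp and Per1 minus that of a list that includes Arntl, moved with the groups. Its mean was 3.61 ± 0.474 in sham-Oxf (SD, n = 5) and 3.16 ± 0.480 in CKD-Oxf (n = 7), against 2.23 ± 0.907 in sham-vehicle (n = 10) and 0.908 ± 0.975 in CKD-vehicle (n = 6). In bulk tissue, fewer cells of a type and less RNA per cell cannot be told apart.

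The genes lie on the minus strand of 6 chromosomes in mouse build GRCm38. The 3 C1q genes form a cluster on chromosome 4, with C1qb at 136880129 to 136886187, C1qc at 136889804 to 136893065 and C1qa at 136895917 to 136898803. C4b (34728380 to 34743882) and C3 (57203970 to 57228136) are both on chromosome 17. C7 is at 4988762 to 5063740 on chromosome 15, Serping1 at 84765387 to 84775444 on chromosome 2, C3ar1 at 122847138 to 122856161 on chromosome 6, and C5ar1 at 16246743 to 16259540 on chromosome 7. C3 contains a microRNA gene on the same strand, and C7 overlaps a small nuclear RNA gene on the other strand. The use of strand in counting was not given in the sources used here, so reads of such overlaps cannot be told apart.

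Of the 9 genes, 6 had a promoter entry in RefSeq (GRCm38.p6), and 3 are shown, picked by how the genes varied between mice: C1qb for the C1q chains, C3 as the gene that varied with all others, and C7 as the one that varied with fewest. Each is the 250 bases before the transcript start, written 5′ to 3′ on the strand of the gene (minus). The windows are chr4:136886201-136886450 for C1qb, chr17:57228137-57228386 for C3 and chr15:5063774-5064023 for C7. Capitals mark matches to 5 motifs searched on both strands: the letters GAGGAA of PU.1 sites, TTCNNNGAA of the STAT type, an interferon response motif of the ISRE type, the E-box CACGTG bound by clock factors, and the usual TATAAA upstream of start sites.
C1qb: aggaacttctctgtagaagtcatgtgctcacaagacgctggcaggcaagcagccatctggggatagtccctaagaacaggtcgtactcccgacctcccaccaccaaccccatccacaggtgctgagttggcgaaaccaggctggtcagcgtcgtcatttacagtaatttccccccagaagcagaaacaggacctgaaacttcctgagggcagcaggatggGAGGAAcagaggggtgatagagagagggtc
C3: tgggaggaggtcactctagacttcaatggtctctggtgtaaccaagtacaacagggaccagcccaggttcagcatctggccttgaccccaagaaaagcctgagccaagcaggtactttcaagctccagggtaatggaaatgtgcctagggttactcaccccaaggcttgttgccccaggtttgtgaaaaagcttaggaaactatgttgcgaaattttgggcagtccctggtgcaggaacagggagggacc
C7: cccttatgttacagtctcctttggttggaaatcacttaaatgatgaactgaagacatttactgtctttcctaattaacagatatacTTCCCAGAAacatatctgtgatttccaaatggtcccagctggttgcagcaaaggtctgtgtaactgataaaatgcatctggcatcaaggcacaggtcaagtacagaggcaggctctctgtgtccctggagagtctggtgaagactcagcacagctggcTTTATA
The C1qb window held GAGGAA from position -30 relative to the start, a match that 23.3% of 32851 promoter windows of the same length also held. The C7 window held TTCNNNGAA from position -164, found in 7.02% of windows, which reads as a match on both strands. It also held TATAAA on the opposite strand at position -6, found in 12.4% of windows. The C3 window held none of the 5. Of the windows not shown, C1qc held GAGGAA on the opposite strand at position -193, C3ar1 held TATAAA at position -235, and C5ar1 held none. CACGTG and the ISRE type motif, which 6.02% and 2.98% of windows hold, were in none of the 6. A match is a string of letters and says nothing of binding.

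Compared per length, as CPM divided by kilobases of exon (RPKM), C3 was the most abundant transcript at 48.7 ± 20.0 RPKM (SD, n = 28), and it exceeded Serping1 in 28 of 28 mice. Serping1 followed at 17.8 ± 5.95 RPKM and exceeded C1qa in 21 of 28 mice. C1qa (14.2 ± 4.18 RPKM), C4b (12.3 ± 5.95), C1qb (10.4 ± 3.25), C1qc (9.32 ± 2.88) and C7 (7.97 ± 3.02) followed, and neighbours among these 5 kept their order in only 16 to 19 of 28 mice. The receptors were lowest, with C5ar1 at 1.51 ± 0.405 RPKM below C7 in 28 of 28 mice and C3ar1 at 0.809 ± 0.269 RPKM below C5ar1 in 28 of 28. The place of C1qc depends on the length used: over its longest transcript (1203 bases) in place of all annotated exons (1931 bases) its level was 14.97 RPKM, and C1qb then exceeded it in 1 of 28 mice.

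**Figure D1:**
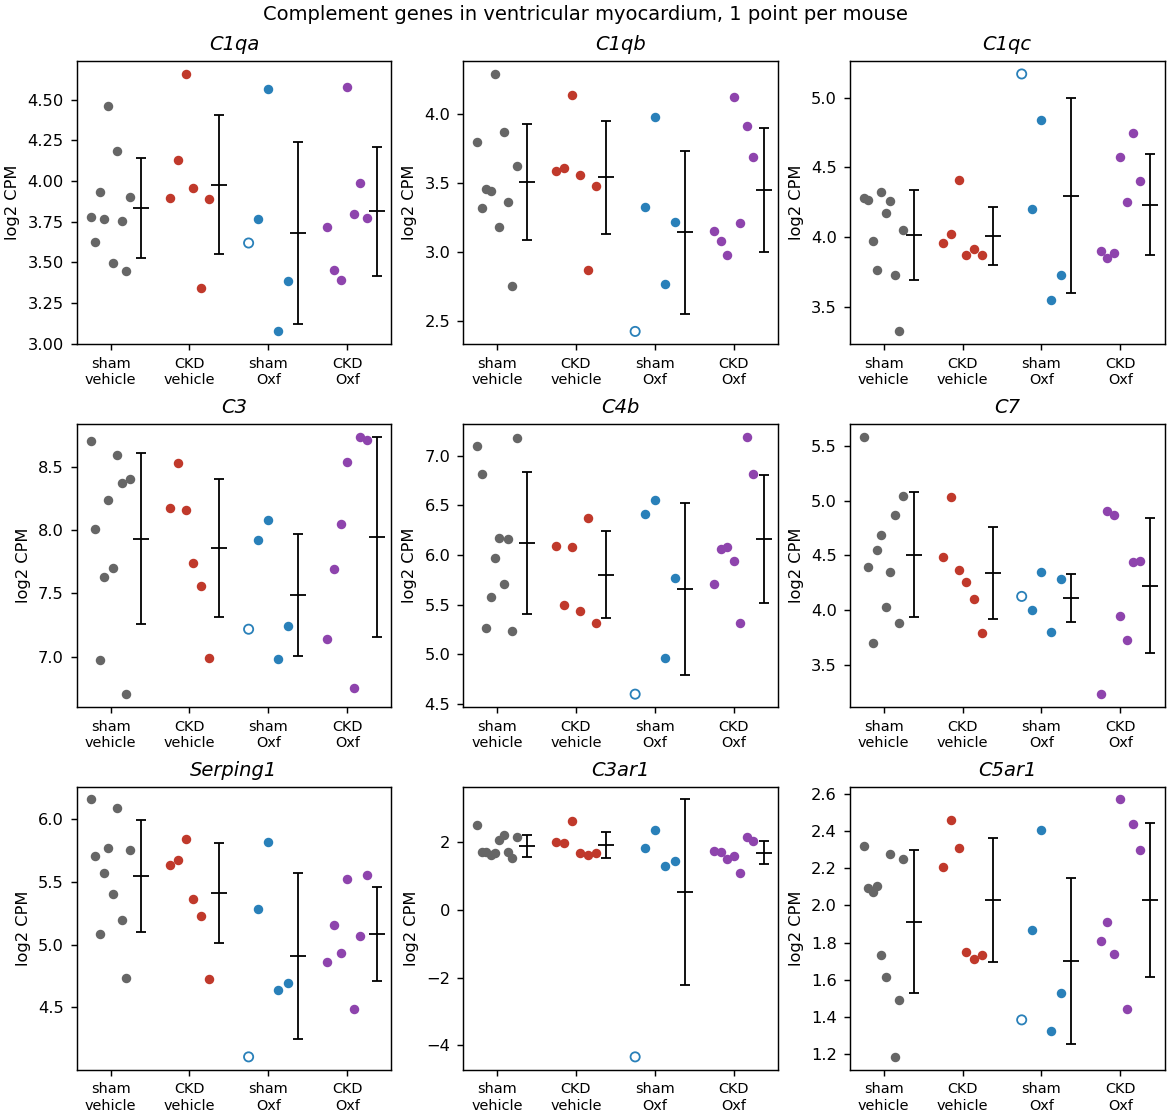
Each panel plots 1 gene as log2 CPM on the y axis against the 4 groups on the x axis, with 1 point per mouse, the mean ± SD as a black bar, and sham-Oxf replicate 1 as an open circle. The groups overlap in every panel, and the open circle lies far below the rest for C3ar1 and at the top of its group for C1qc.

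The C1q chains, whose products assemble into the recognition molecule of the classical pathway, did not pass the test in any comparison. C1qa had a lowest, median and highest value of 10.9, 13.6 and 21.95 CPM in sham-vehicle mice, 10.1, 15.1 and 25.2 in CKD-vehicle, and 10.4, 13.6 and 23.9 in CKD-Oxf. The 5 sham-Oxf mice had, in order of replicate, 12.2, 13.5, 23.6, 8.38 and 10.4 CPM. The groups overlapped, and 1 mouse in each of CKD-vehicle (replicate 3), sham-Oxf (replicate 3) and CKD-Oxf (replicate 4) stood at the top of its group. C1qa was 1.12-fold higher in CKD-vehicle than in sham-vehicle (95% interval 0.840 to 1.497, edgeR adjusted p = 0.955).

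C1qb had a lowest, median and highest value of 6.67, 10.9 and 19.5 CPM in sham-vehicle, 7.23, 11.8 and 17.6 in CKD-vehicle, and 7.81, 9.18 and 17.3 in CKD-Oxf. Replicates 1 to 5 of sham-Oxf had 5.31, 9.97, 15.7, 6.76 and 9.24 CPM. The CKD-vehicle to sham-vehicle ratio of C1qb was 1.01 (0.737 to 1.40, edgeR adjusted p = 0.993). All groups overlapped, and the lowest value of the 28 was that of sham-Oxf replicate 1.

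C1qc encodes the chain that joins those of C1qa and C1qb in the C1q molecule. It had a lowest, median and highest value of 9.95, 17.2 and 20.0 CPM in sham-vehicle, 14.6, 15.3 and 21.2 in CKD-vehicle, and 14.4, 19.0 and 26.8 in CKD-Oxf. In sham-Oxf mice 1 to 5 it was 35.998, 18.3, 28.7, 11.6 and 13.2 CPM. The highest of all was again the library that stood apart, sham-Oxf replicate 1, and the groups overlapped. Averaged over surgery, Oxf mice had C1qc at 1.25-fold the vehicle level (log2 difference 0.32 ± 0.15 SE, 95% interval 1.01- to 1.54-fold), which did not pass after adjustment (edgeR p = 0.0402, adjusted p = 0.194). The log2 difference of C1qc was 0.19 without sham-Oxf replicate 1 (edgeR adjusted p = 0.396). For C1qa the same log2 difference was -0.13 ± 0.16 and for C1qb -0.20 ± 0.17 (edgeR adjusted p = 0.673 and 0.522).

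C4b encodes the C4 protein that joins C1q to C3 in the classical and lectin pathways. It had a lowest, median and highest value of 37.7, 67.2 and 145 CPM in sham-vehicle, 39.9, 56.6 and 82.9 in CKD-vehicle, and 39.8, 66.7 and 146 in CKD-Oxf. The 5 sham-Oxf mice had, in order of replicate, 24.2, 85.2, 94.1, 31.1 and 54.6 CPM. High values were found in sham-vehicle and CKD-Oxf mice, low values in all 4 groups, and the groups overlapped. C4b in CKD-vehicle was 0.744-fold that in sham-vehicle (95% interval 0.468 to 1.18, log2 difference -0.43 ± 0.33 SE, edgeR adjusted p = 0.955). CKD-Oxf against CKD-vehicle gave 1.35-fold (0.821 to 2.22, edgeR adjusted p = 0.601). The interaction of surgery and gavage for C4b was 0.86 ± 0.49 on the log2 scale, the largest of the 9 genes (edgeR p = 0.0928, adjusted p = 1.00).

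C4b has a near-identical neighbour, C4a, and its values are uncertain for that reason. Of 5737 stretches of 50 bases in C4b transcripts, 34.6% were also in C4a transcripts. The counts of C4a were 0.132 to 0.213 of those of C4b in a library, with a median of 0.185. Over the 28 mice, with group means removed, log2 CPM of the 2 genes had r = 0.975 (rho = 0.964, permutation p = 1e-05 for each, the smallest that 100000 permutations can give). Without the 2 libraries farthest from the median, r was 0.978. How reads common to both genes were counted was not given in the sources used here.

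C3, on which all complement pathways converge, was the most abundant and among the most variable of the 9 genes. It had a lowest, median and highest value of 104, 279 and 416 CPM in sham-vehicle, 127, 250 and 369 in CKD-vehicle, and 107, 264 and 427 in CKD-Oxf. Replicates 1 to 5 of sham-Oxf had 149, 242, 270.5, 126 and 151 CPM. The groups overlapped, and sham-Oxf replicate 4 was just below the lowest CKD-vehicle mouse. C3 in sham-Oxf was 0.705-fold that in sham-vehicle (95% interval 0.444 to 1.12, log2 difference -0.50 ± 0.33 SE, edgeR adjusted p = 0.535). CKD-vehicle against sham-vehicle gave 0.922-fold (0.601 to 1.41, edgeR adjusted p = 0.970). CKD-Oxf against sham-Oxf gave 1.47-fold (0.903 to 2.41, edgeR adjusted p = 0.752).

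C7 adds to the membrane attack complex after C5b and C6. It had a lowest, median and highest value of 12.95, 22.1 and 47.9 CPM in sham-vehicle, 13.8, 19.8 and 32.8 in CKD-vehicle, and 9.35, 21.7 and 29.9 in CKD-Oxf. In sham-Oxf mice 1 to 5 it was 17.4, 15.9, 20.3, 13.9 and 19.4 CPM. Sham-Oxf values were the most alike, with a 1.46-fold span from lowest to highest against 3.70-fold in sham-vehicle, and they lay within the range of the other groups. C7 in sham-Oxf was 0.711-fold that in sham-vehicle (95% interval 0.487 to 1.04, edgeR p = 0.0765, adjusted p = 0.443). CKD-vehicle against sham-vehicle gave 0.858-fold (0.603 to 1.22, edgeR adjusted p = 0.955).

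Serping1 encodes C1 inhibitor, which inactivates the C1 proteases and those of the contact system. It had a lowest, median and highest value of 26.6, 49.8 and 71.4 CPM in sham-vehicle, 26.5, 45.3 and 57.2 in CKD-vehicle, and 22.4, 33.5 and 46.9 in CKD-Oxf. The 5 sham-Oxf mice had, in order of replicate, 17.2, 39.0, 56.4, 24.9 and 25.9 CPM. Both Oxf groups had lower medians than both vehicle groups, and all groups overlapped. Averaged over surgery, Serping1 in Oxf mice was 0.731-fold the vehicle level (95% interval 0.574 to 0.930, log2 difference -0.45 ± 0.17 SE, edgeR p = 0.0124), which did not pass after adjustment (adjusted p = 0.115). In sham mice alone the log2 difference was -0.58 ± 0.24 (edgeR p = 0.0243, adjusted p = 0.324), and in CKD mice alone it was -0.33 ± 0.24 (edgeR adjusted p = 0.557).

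The averaged Serping1 difference was on the other side of the threshold in 2 alternatives. It passed with limma voom and sample weights (-0.44, adjusted p = 0.0330), a test that called 21.9% of all genes, and with edgeR without sham-Oxf replicate 3 (-0.59, adjusted p = 0.0488). Without sham-Oxf replicate 1 it was -0.37 (edgeR adjusted p = 0.156), and with the clock score as a covariate it was -0.10 (edgeR adjusted p = 0.943). Fibroblast markers, 10 genes of which 0 were at 0 throughout, moved in the same direction. Their summed level was 868 to 2042 CPM in sham-Oxf (median 1050.25) and 914 to 2482 CPM in CKD-Oxf (median 1215). With vehicle it was 903 to 2859 CPM in sham mice (median 1539) and 1281 to 2591 CPM in CKD mice (median 1712). Other lists, among them macrophage markers and smooth muscle and pericyte markers, also had a lower mean log2 CPM with Oxf after both surgeries. Endothelial markers were lower with Oxf in sham mice and higher in CKD mice. The part of fibroblast markers, or of any other list, in the Serping1 values was not tested.

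The receptors for the C3 and C5 fragments, found mainly on myeloid cells, were low in these hearts. C3ar1 had a lowest, median and highest value of 2.86, 3.25 and 5.62 CPM in sham-vehicle, 3.01, 3.52 and 6.16 in CKD-vehicle, and 2.10, 3.26 and 4.40 in CKD-Oxf. Replicates 1 to 5 of sham-Oxf had 0, 3.51, 5.07, 2.43 and 2.68 CPM. The count of 0 was in sham-Oxf replicate 1, where 3 counts, the limit that a count of 0 allows, correspond to 0.142 CPM. C3ar1 in sham-Oxf was 0.736-fold that in sham-vehicle (95% interval 0.419 to 1.29, log2 difference -0.44, edgeR adjusted p = 0.680), and without that mouse the log2 difference was -0.14 (edgeR adjusted p = 0.835).

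C5ar1 had sham-vehicle, CKD-vehicle and CKD-Oxf means of 3.83 ± 0.945 (SD, n = 10), 4.12 ± 0.973 (n = 6) and 4.18 ± 1.20 CPM (n = 7). In sham-Oxf mice 1 to 5 it was 2.56, 3.60, 5.25, 2.46 and 2.84 CPM. All groups overlapped. C5ar1 in CKD-vehicle was 1.08-fold that in sham-vehicle (95% interval 0.801 to 1.45, edgeR adjusted p = 0.961), and CKD-Oxf against CKD-vehicle gave 1.01-fold (0.738 to 1.39, edgeR adjusted p = 0.980).

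Read across the 9 genes, nephrectomy under vehicle left complement transcripts without a called change. In CKD-vehicle against sham-vehicle, 0 of 9 passed an edgeR adjusted p of 0.05, where 0.00824% of all tested genes (2 genes) were called. At an unadjusted p under 0.05 there were 0 of 9 members and 4.46% of genes, and DESeq2 and limma voom also called 0 members, beside 0.12% and 0.227% of genes. The members divided 4 higher and 5 lower, with a median log2 difference of -0.02 beside -0.03 over all tested genes. The 95% interval of the fold was narrowest for C1qc, from 0.744 to 1.30.

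Oxf given to CKD mice likewise moved none of the 9 genes past the threshold. In CKD-Oxf against CKD-vehicle 0 of 9 were called by edgeR, beside 0.033% of all genes (8 genes, 0.0247% higher and 0.00824% lower), and 0 of 9 against 13.1% at an unadjusted p under 0.05. DESeq2 and limma voom called 0 members, beside 0.785% and 14.9% of genes. The members divided 4 higher and 5 lower, with a median log2 difference of -0.06 beside 0.03 over all genes. This comparison shares the CKD-vehicle mice with the one before.

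Oxf given to sham mice came with lower values for 8 of the 9 genes, all but C1qc, and 0 of 9 passed. In sham-Oxf against sham-vehicle edgeR called 0% of all genes, and DESeq2 and limma voom called 0 members, beside 0.541% and 0.132% of genes. Serping1 was the only 1 of the 9 at an unadjusted edgeR p under 0.05, as were 12.6% of all genes. The median log2 difference of the 9 was -0.43 beside -0.04 over all genes. The share of all genes with a lower value was not counted. Levels of most pairs of the 9 were correlated from mouse to mouse, as given below, so the 8 directions are not independent of each other. The 8 differences were, without sham-Oxf replicate 1, still negative, from -0.49 for C7 to -0.06 for C1qa, and C1qc was 0.13, with edgeR adjusted p-values of 0.585 or more for each of the 9 genes. Macrophage and fibroblast markers also had lower means in these mice, as did every other list of cell-type markers, so this direction was not particular to them. The mean log2 CPM of endothelial markers was 7.26 in sham-Oxf and 7.42 in sham-vehicle. That of smooth muscle and pericyte markers was 6.00 in sham-Oxf and 6.17 in sham-vehicle. The mean log2 CPM of 12 macrophage markers was 2.51 ± 0.453 in sham-Oxf (SD, n = 5) and 2.84 ± 0.200 in sham-vehicle (n = 10). In sham-Oxf mice 1 to 5 it was 1.80, 2.68, 3.04, 2.49 and 2.54, with the lowest value in sham-Oxf replicate 1. The summed level of the macrophage markers was 159 to 213 CPM (median 177) in sham-Oxf against 160.007 to 232 CPM (median 197) in sham-vehicle. The mean log2 CPM of the 10 fibroblast markers was 5.83 ± 0.414 against 6.21 ± 0.473. The part of these markers, or of any other list, in the 8 differences was not tested.

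Among mice given Oxf the direction was the opposite, with the same 8 genes higher in CKD-Oxf than in sham-Oxf. The comparison shares the sham-Oxf mice with the one before, so the 2 directions are not independent. Here 0 of 9 were called by edgeR beside 0% of all genes, with 0 at an unadjusted p under 0.05 against 8.23% of genes, and DESeq2 and limma voom called 0 members, beside 0.421% and 0% of genes. The median was 0.25 beside 0.05 over all genes. Without sham-Oxf replicate 1, Serping1 and C3ar1 changed sign to -0.07 and -0.06 and C1qc to 0.10 (edgeR adjusted p of 0.969, 0.969 and 0.939).

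The difference between the Oxf effects in CKD and in sham mice, the interaction, was also not called for any of the 9. EdgeR called 0% of genes there, with 0 of 9 members and 3.55% of genes at an unadjusted p under 0.05, and DESeq2 and limma voom called 0 members and 0% of genes. The members divided 7 positive and 2 negative, with a median of 0.25 beside 0.07 over all genes. For CKD averaged over gavage, edgeR called 0% of genes, with 0 of 9 members and 10.6% of genes at an unadjusted p under 0.05, and DESeq2 and limma voom called 0 members, beside 0.485% and 0.515% of genes.

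For Oxf averaged over surgery, edgeR called 2.81% of all genes, 1.26% higher and 1.54% lower, and 0 of the 9 complement genes. At an unadjusted p under 0.05 there were 2 of 9 (C1qc higher and Serping1 lower) against 23.0% of genes, so the members' share was near the background. DESeq2 called 0 members beside 9.97% of genes, and limma voom 1, Serping1, beside 21.9% of genes. The median log2 difference of the 9 was -0.17 beside 0.00 over all genes. The clock score was higher in both Oxf groups, as given above, and with that score as a covariate edgeR called 0 genes. As score and gavage move together, this fit cannot tell them apart, and fewer calls would come with either.

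**Figure D2:**
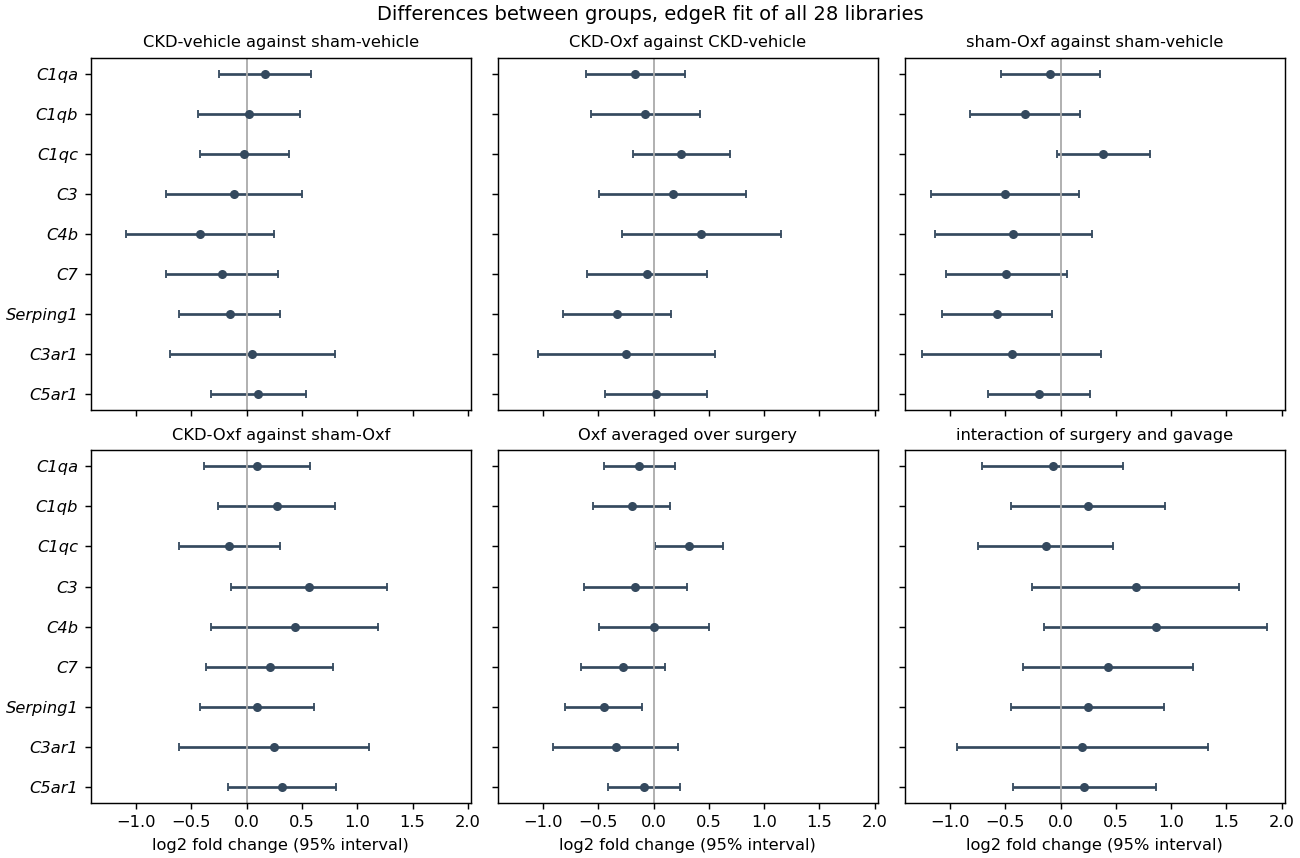
Each panel plots, for 1 comparison, the log2 fold change on the x axis with its 95% interval from the edgeR fit of all 28 libraries, with the 9 genes on the y axis and a grey line at 0. Most intervals cross 0, and the exceptions are Serping1 in sham-Oxf against sham-vehicle (-0.58) and, averaged over surgery, Serping1 (-0.45) and C1qc (0.32), none of which passed after adjustment.

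For 7 of the 9 genes the spread between mice of a group was larger than the range between the group means. This was not counted over all tested genes, so it does not set complement genes apart. C3 spanned 3.995-fold from the lowest to the highest sham-vehicle mouse and 3.97-fold in CKD-Oxf, and C4b spanned 3.86- and 3.68-fold in these groups. Within groups the SD of log2 CPM of C3 was 0.65, against a range of 0.46 between the 4 group means. For C4b the SD was 0.68 against a range of 0.50, for C7 0.51 against 0.40, for C1qb 0.46 against 0.40, and for C5ar1 0.39 against 0.33. Serping1 was different, with an SD of 0.46 and a range of 0.64 between group means, as was C3ar1 (1.16 and 1.41). With sham-Oxf replicate 1 left out the spread was larger for 8 of 9, since C3ar1 then had an SD of 0.36 and a range of 0.24, while Serping1 had 0.44 and 0.46. Leaving out sham-Oxf replicate 1, C3 (SD 0.67) was more variable than 95.6% of the 225 genes within 0.5 log2 CPM of its level, and C4b (0.65) than 96.8% of 1359 such genes. The C1q chains were less variable, with C1qc (0.36) above 72.3% of 2814 genes of its level.

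Levels of most pairs of the 9 genes were correlated from mouse to mouse. With group means removed, 25 of 36 pairs had a correlation of log2 CPM that passed a Benjamini-Hochberg adjusted permutation p of 0.05, with a median r of 0.51 over the pairs. With sham-Oxf replicate 1 left out, 30 of 36 passed, with a median r of 0.65 and a range of 0.08 to 0.92. By rank, 28 and 31 of 36 passed. Across every pair of the 13906 genes that averaged 1 log2 CPM or more, the median r was 0.016, and 16.1% of pairs reached 0.5, beside 20 of the 36 member pairs (55.6%). Without that library 17.7% of all pairs and 28 of 36 (77.8%) reached 0.5. All values of a mouse come from 1 library, so its depth, RNA quality and mix of cells are common to all 9 genes.

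Within that pattern the C1q chains went together and C7 stood aside. C1qa and C1qb had r = 0.87 (rho = 0.84, adjusted permutation p = 0.00012), and without the 2 mice farthest from the median of C1qa r was 0.81. C1qb and C1qc had r = 0.49 over all mice (rho = 0.59, adjusted permutation p = 0.0378) and 0.82 without sham-Oxf replicate 1. C1qa and C7 had r = 0.08 (rho = 0.17, adjusted permutation p = 0.668), and C1qa and C4b r = 0.18 (rho = 0.17, adjusted permutation p = 0.465). C7 passed with 3 of 8 partners, C3, C4b and Serping1.

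C3 passed with 8 of 8 partners, with its lowest r, 0.30 (rho = 0.56, adjusted permutation p = 0.0216), for C3ar1. That r was 0.69 without sham-Oxf replicate 1. The pair of C3 with Serping1 had r = 0.81 (rho = 0.80, adjusted permutation p = 0.00012, r = 0.75 without the 2 farthest mice). With C4b it was 0.70 (rho = 0.70, adjusted permutation p = 0.00108, 0.62 without the 2 farthest), and with C7 0.69 (rho = 0.69, adjusted permutation p = 0.00124, 0.65 without the 2 farthest). Serping1 and C5ar1 had r = 0.80 (rho = 0.84, adjusted permutation p = 0.00012, 0.74 without the 2 farthest). Mice high in C3 were often high in C4b. Sham-vehicle replicate 1 had 416 and 137 CPM of C3 and C4b and CKD-Oxf replicate 6 had 427 and 146 CPM, while sham-vehicle replicate 9 had 104 and 37.7 CPM.

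The pair of C1qc and C3ar1 rests on the library that stood apart. Its r was -0.29 over 28 mice (rho = 0.16, adjusted permutation p = 0.633) and 0.67 over 27 (rho = 0.68), since sham-Oxf replicate 1 had the highest C1qc value and no C3ar1 count.

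**Figure D3:**
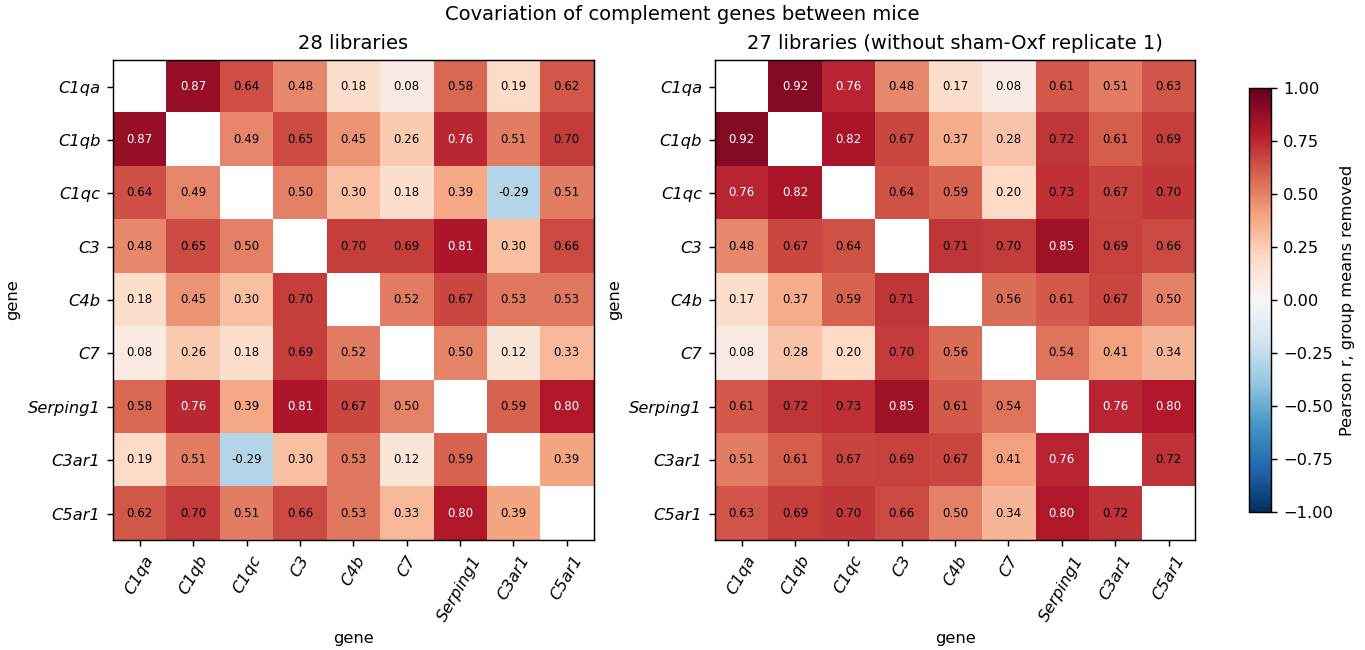
Both panels show Pearson r for every pair of the 9 genes on the axes, as colour and as a printed value, from log2 CPM with group means removed, for 28 libraries on the left and for 27, without sham-Oxf replicate 1, on the right. The C1q block (0.76 to 0.92 on the right) and the row of C3 are high, the row of C7 is pale, and the pair of C1qc and C3ar1 turns from -0.29 to 0.67.

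Most of the 9 genes were also correlated with macrophage markers, while C7 did not pass and C1qc passed only when sham-Oxf replicate 1 was left out. The mean log2 CPM of 12 markers, with group means removed, correlated with 7 of the 9 genes at an adjusted permutation p under 0.05 over 18 relations, and with 8 without sham-Oxf replicate 1. The r was 0.83 for Serping1 (rho = 0.81, adjusted permutation p = 6e-05), 0.79 for C3ar1 (rho = 0.74) and 0.79 for C1qb (rho = 0.81), and 0.33 for C7, which did not pass (rho = 0.40, adjusted permutation p = 0.0863). For C1qc it was 0.20 (rho = 0.45, adjusted permutation p = 0.585) over all mice and 0.75 without sham-Oxf replicate 1. Without the 2 mice farthest from the median of the marker score, r was 0.78 for Serping1, 0.79 for C3ar1 and 0.74 for C1qb. An r of at least 0.5 with the marker score was found for 7 of 9 members, and for 8 of 9 without sham-Oxf replicate 1. Over 13898 genes, with the members included and the marker genes left out, the shares were 16.2% and 10.1%. The marker lists of other cell types were not correlated with the members, so a link particular to macrophages was not tested. The clock score, in contrast to its difference between groups, passed with 0 of 9 genes, with r from -0.34 for C1qc (adjusted permutation p = 0.0842) to 0.15 for C3ar1. Without sham-Oxf replicate 1, again 0 of 9 passed, but r was negative for all 9. It ran from -0.43 for Serping1 (rho = -0.36, adjusted permutation p = 0.0548) to -0.0097 for C4b, and C3ar1 was at -0.27. Leaving out the 2 farthest mice as well gave -0.23 for Serping1.

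The genes most like each complement gene differed between them. Likeness was the Spearman rho over 28 mice, with group means removed, among 13906 genes whose mean reached 1 log2 CPM, and it is a description. The mean of the C1q chains was most like Serp1 (0.90), Crip1 (0.87) and Npc2 (0.87). C3 was most like Met (0.89), a growth factor receptor gene, Colec12 (0.88), a scavenger receptor collectin, and Tmem176b (0.88). C4b was most like its copy C4a (0.96), then Ptk2b (0.93) and Col4a6 (0.93), a basement membrane collagen. C7 had the lowest likenesses, with Gxylt2 (0.78), Mfap4 (0.73) and Rspo1 (0.73).

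Serping1 was most like Tgfbr2 (0.94), a receptor for transforming growth factor beta, Timp2 (0.93), an inhibitor of matrix proteases, and Gpc3 (0.92). C5ar1 was most like the Wnt ligand gene Wnt5a (0.88), Tgfbr2 (0.87) and Sfrp1 (0.84). For C3ar1 the genes were Zc3hav1l (0.89), Fzd2 (0.88) and Cep83os (0.87), whose Pearson r of 0.98, 0.97 and 0.97 fell to 0.78, 0.83 and 0.69 without sham-Oxf replicate 1.

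The ratios between the C1q chains were compared next, and none of 12 tests passed after adjustment. The ratio of C1qc to C1qb CPM, examined after these values had been seen, had a median of 1.83 in sham-Oxf and 1.72 in CKD-Oxf, against 1.38 in sham-vehicle and 1.31 in CKD-vehicle. The 5 sham-Oxf mice had, in order of replicate, 6.78, 1.84, 1.83, 1.72 and 1.43, the first from 759 C1qc and 112 C1qb counts. In CKD-Oxf it ran from 1.37 to 2.07 and in CKD-vehicle from 1.21 to 2.08, with 5 of the 6 CKD-vehicle mice under 1.34. All 7 CKD-Oxf mice were above the CKD-vehicle median, although the ranges overlapped.

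By exact two-sided permutation tests, the C1qc to C1qb ratio in CKD-Oxf was 1.24-fold that in CKD-vehicle (p = 0.0420), which did not pass after adjustment over 12 such tests (adjusted p = 0.152). In sham-Oxf against sham-vehicle it was 1.57-fold higher (exact permutation p = 0.0220, adjusted p = 0.152), with 5 of 5 mice above the sham-vehicle median. Without sham-Oxf replicate 1 it was 1.19-fold (exact permutation p = 0.126, adjusted p = 0.503). The ratio of C1qc to C1qa in CKD-Oxf was 1.31-fold that in CKD-vehicle (exact permutation p = 0.0315, adjusted p = 0.152). The ratio of C1qa to C1qb was 0.951-fold in the same comparison (exact permutation p = 0.446).

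The mean share of 7SL RNA, an abundant small cytoplasmic RNA, was lower with Oxf than with vehicle after the same surgery. It was 4.14 ± 3.52% of counts in sham-Oxf (SD, n = 5) and 8.81 ± 6.26% in CKD-Oxf (n = 7), against 9.78 ± 5.24% in sham-vehicle (n = 10) and 13.6 ± 6.80% in CKD-vehicle (n = 6). With group means removed, the log2 ratio of C1qc to C1qb had r = -0.08 with the log2 share over 28 mice (rho = -0.16, permutation p = 0.654). Without sham-Oxf replicate 1 the values were r = -0.71 and rho = -0.55 (permutation p = 0.00043 and 0.00366, adjusted over 3 relations 0.00129 and 0.0110). Leaving out the 2 farthest mice as well gave r = -0.48. With log2 total counts r was -0.64 (rho = -0.55, permutation p = 0.00103, adjusted p = 0.00309), and -0.44 without the 2 farthest mice. Over the 27 mice it was -0.56 (adjusted permutation p = 0.0123), and rho was -0.40 (adjusted permutation p = 0.0599). The part of 7SL share and depth in the group difference was not tested.

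**Figure D4:**
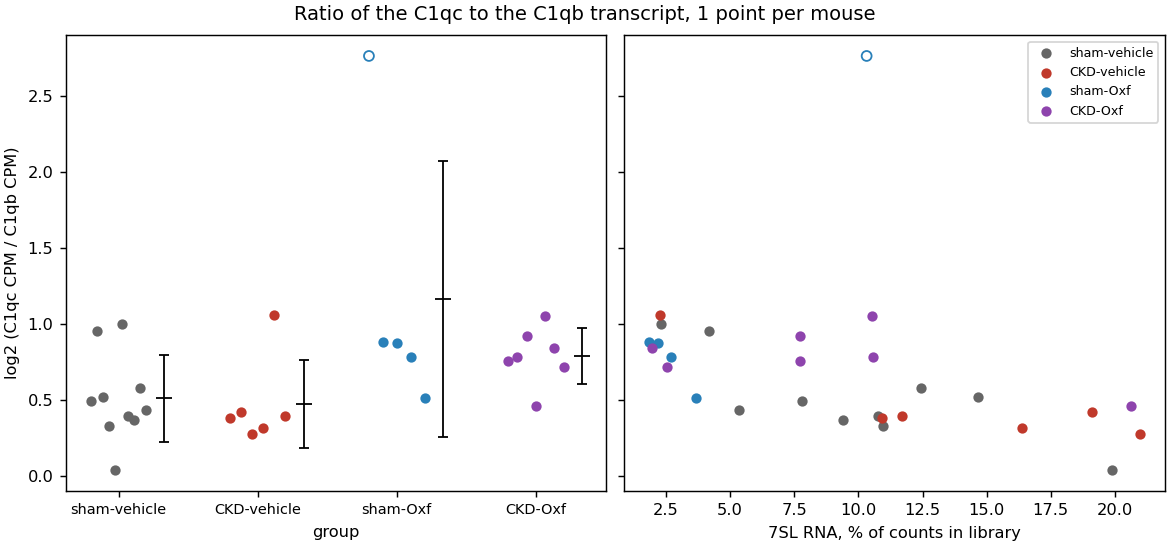
The left panel plots log2 of the C1qc to C1qb ratio on the y axis by group, with the mean ± SD as a black bar, and the right panel plots the same ratio against the percentage of counts from 7SL RNA, with 1 point per mouse coloured by group and sham-Oxf replicate 1 as an open circle. Most points of the Oxf groups lie above most of those of the vehicle groups, and the open circle (a ratio of 6.78) lies far above all others.

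Of 44 other complement genes on a list, 44 were in the table and 37 were tested, and 2 were called, both for Oxf averaged over surgery (1 higher, 1 lower, beside the 2.81% of all genes given above). The list covers the C1 proteases, the lectin and alternative pathways, terminal components, regulators and further receptors. The 7 not tested, for low counts, were Fcnb, Mbl1, Mbl2, Colec10, C8b, C9 and C4bp. In the other 6 comparisons edgeR called 0 of 37. At an unadjusted p under 0.05 there were 3 of 37 in CKD-vehicle against sham-vehicle (4.46% of all genes) and 7 in CKD-Oxf against CKD-vehicle (13.1%). There were 7 in sham-Oxf against sham-vehicle (12.6%) and 5 in CKD-Oxf against sham-Oxf (8.23%). The interaction had 3 (3.55%) and CKD averaged over gavage 4 (10.6%). For Oxf averaged over surgery 8 of 37 were under that p, beside 23.0% of all genes. Other tools called further genes of the list, among them the following. DESeq2 called C8a lower for CKD averaged over gavage and, for Oxf averaged over surgery, Cd59a lower and Susd4 higher. In CKD-Oxf against CKD-vehicle limma voom called C6 higher and Cd59a, Cr1l and Cd93 lower. For Oxf averaged over surgery it called Cd59a, Clu, Cd93 and C1qbp lower. These genes were named after their values were seen, and the shares of all genes called by the same tests were, as given above, 0.485% and 9.97% by DESeq2 and 14.9% and 21.9% by limma voom. The median log2 difference of the list was -0.14 in CKD-vehicle against sham-vehicle and 0.04 in CKD-Oxf against CKD-vehicle, beside -0.03 and 0.03 over all genes. It was -0.26 in sham-Oxf against sham-vehicle (-0.04 over all genes), 0.22 in CKD-Oxf against sham-Oxf (0.05) and 0.25 for the interaction (0.07). For Oxf averaged over surgery the list median was -0.11 (0.0031 over all genes), and for CKD averaged over gavage 0.03 (-0.00068).

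Cd59a, which encodes an inhibitor of the membrane attack complex on the surface of the cell's own membrane, fell in the Oxf mice. Its level was 5.74 ± 2.16 CPM in sham-Oxf (SD, n = 5) and 9.02 ± 3.84 in CKD-Oxf (n = 7), against 10.98 ± 4.04 in sham-vehicle (n = 10) and 14.2 ± 5.06 in CKD-vehicle (n = 6). The groups overlapped, and the highest sham-Oxf value (7.73 CPM) was below the sham-vehicle median (10.7). The averaged log2 difference of Cd59a was -0.79 ± 0.21 SE (edgeR adjusted p = 0.0428). It passed in 10 of 28 edgeR fits that leave out a mouse, with adjusted p-values from 0.00593 to 0.0871. With the clock score as a covariate it was -0.56 (edgeR adjusted p = 0.766), a fit that cannot tell the score and gavage apart.

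C8a, a terminal component made by the liver, was called higher in Oxf mice by the same test (log2 difference 3.18 ± 0.89 SE, edgeR adjusted p = 0.0473) from very low counts. Its median was 0.135 CPM in sham-Oxf and 0.0817 in CKD-Oxf, against 0.0798 in sham-vehicle and 0 in CKD-vehicle, and 64 counts (3.04 CPM) were in sham-Oxf replicate 1. Without that mouse the C8a log2 difference was 2.20 (edgeR adjusted p = 0.108), with limma voom it was 0.84 (adjusted p = 0.354), and DESeq2 gave no adjusted p. It passed in 6 of 28 fits that leave out a mouse, and with CKD-vehicle at or near 0 counts the fitted difference depends on the prior count.

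In comparisons without a call, the other complement genes with the smallest p were also at low levels. Hc, which encodes C5, was at a median of 0.294 CPM in sham-vehicle and 0.0686 in CKD-vehicle (log2 difference -2.43 ± 0.73 SE, edgeR adjusted p = 0.952). In CKD-Oxf the median of Hc was 0.195 CPM (2.51 ± 0.76 against CKD-vehicle, edgeR adjusted p = 0.203). C6, the partner of C7, had 0.547 CPM in CKD-Oxf and 0.206 in CKD-vehicle (1.57 ± 0.49, edgeR adjusted p = 0.221). Susd4, a complement inhibitor, and Masp2, a lectin pathway protease, had medians of 0.746 and 0.901 CPM in sham-Oxf and 0.380 and 0.660 in sham-vehicle, with maxima of 3.98 and 5.17 CPM in sham-Oxf. Both maxima were in sham-Oxf replicate 1, the library that stood apart. With that mouse included, the log2 differences of Susd4 and Masp2 were 1.47 ± 0.44 and 1.27 ± 0.41 (edgeR adjusted p = 0.198 and 0.222). Their differences without it are not given here. The summed level of 8 hepatocyte markers also had its lowest median in CKD-vehicle, 11.8 CPM (6.97 to 15.4), against 17.7 CPM in sham-vehicle (9.34 to 35.7). With Oxf the median was 14.4 CPM in sham mice (12.4 to 47.9) and 20.1 CPM in CKD mice (4.65 to 126). The part of these markers in the Hc and C8a values was not tested.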

How the data were processed

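Total RNA of ventricular myocardium was measured in 28 libraries. The authors deposited raw gene counts, whole numbers in 1 table (19.8 to 65.4 M per library, M for mega). Per the submitters' processing notes, FastQC 0.11.7, MultiQC 1.9, STAR 2.6.1d, Subread featureCounts 1.6.3 and build mm10 were named. Strand setting and annotation were not given in the sources used here. All columns had a sample (0 without). Counts were tested with edgeR 4.0.16 (R 4.3.3): TMM factors, robust quasi-likelihood F test, 4 group means in 1 fit, filterByExpr with a minimum count of 10, Benjamini-Hochberg adjustment over 24273 genes, threshold 0.05, with 7 contrasts. SE is the absolute log2 fold change over the square root of F. CPM uses TMM library sizes, and log2 CPM a prior count of 2. RPKM uses GENCODE M21 exon lengths. Correlations used 100000 permutations within groups, and C1q ratios exact permutation tests (scipy 1.17.1). Alternatives were DESeq2 1.42.0, limma 3.58.1 voom, 2 other scalings, 2 other filters, compared groups only, the clock score as covariate, and each mouse left out. The C1q ratios, their tests without sham-Oxf replicate 1, the spread between mice without it, and the correlations over all genes were added after seeing the data. No pair of libraries of a group was a duplicate (91 pairs, chi-square per degree of freedom at least 31.6). Fits were tested on simulated counts.

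The members, gene lists and tests were chosen with earlier results of these data known. Named genes were the 9 members. Of the other complement genes they were those that passed, or the 2 with the smallest p in a comparison where none passed. The 3 genes most like each member by rank correlation were also named. A gene of the list of other complement genes is not reported here.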

Additional observations from a re-analysis of the deposited data

Results flagged for a closer look

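Within groups of 5 to 10 mice, the highest or lowest mouse was set against its nearest neighbour by Dixon's ratio, the gap divided by the whole range of the group. Of 40 groups tested, 4 passed the 95% critical value, where about 2 would by chance. C1qc in CKD-vehicle replicate 3 was the highest of its group with a ratio of 0.719. C3ar1 in sham-Oxf replicate 1, the library with a count of 0, was the lowest with 0.844. The C1qc to C1qb ratio was far above the rest in CKD-vehicle replicate 5 (Dixon's ratio 0.817) and in sham-Oxf replicate 1 (0.838). Of these, CKD-vehicle replicate 5 had 2.26% of counts from 7SL RNA, the lowest share of its group, and the part of that share was not tested.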

How the results depend on the processing

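Groups held 5 to 10 mice, with spans of 1.46- to 3.995-fold from lowest to highest within groups (C3ar1 without its count of 0). Each member difference is known only to within its 95% interval. Mice that the design lists but that were not analysed here limit every comparison. Low genes such as C8a and Hc rest on few counts. No paired analysis was possible because the replicate numbers only follow the order of the records. Of 1730 alternative values of the members' log2 differences 2 were called, both Serping1 as given above, 122 changed sign without a call, and 1606 kept their sign and side of the threshold. C3ar1, with its count of 0, has no value with at least 10 counts required in every library. The causes were not tested.

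The members called by edgeR for Oxf averaged over surgery were 0, against 1 with limma voom and 0 to 1 when leaving out a mouse. The other complement genes called there were 2, with 0 to 4 when leaving out a mouse, and DESeq2 called 1 in place of 0 for CKD averaged over gavage. All genes called in CKD-vehicle against sham-vehicle (2 by edgeR) were 29 with DESeq2, 55 with limma voom, 1 with upper quartile scaling, no filter or the compared groups only, 0 with the clock score as covariate, and 0 to 1 when leaving out a mouse. In CKD-Oxf against CKD-vehicle (8) they were 190 with DESeq2, 3620 with limma voom, 5 with DESeq2 size factors, upper quartile scaling or no filter, 14 with at least 10 counts in every library, 0 with the clock score, and 0 to 927 when leaving out a mouse (927 without CKD-Oxf replicate 4). In sham-Oxf against sham-vehicle (0) they were 131 with DESeq2, 32 with limma voom, 2 with the clock score, and 0 to 20 when leaving out a mouse. In CKD-Oxf against sham-Oxf (0) DESeq2 called 100. For Oxf averaged over surgery (681) they were 2133 with DESeq2, 5307 with limma voom, 161 with no filter, 1422 with at least 10 counts in every library, 0 with the clock score, and 109 to 3362 when leaving out a mouse (109 without CKD-vehicle replicate 2, 3362 without CKD-Oxf replicate 4). For CKD averaged over gavage (0) they were 113 with DESeq2, 125 with limma voom, 2 with the clock score, and 0 to 1 when leaving out a mouse.

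The log2 differences that changed sign were not called, but not every shift was small. With the clock score, Serping1 in CKD-Oxf against CKD-vehicle went from -0.33 to 0.095, and C5ar1 for Oxf averaged over surgery from -0.09 to 0.22. In CKD-vehicle against sham-vehicle, C1qb was -0.00065 with DESeq2, -0.00089 with DESeq2 size factors, -0.0081 with upper quartile scaling, -0.0097 with at least 10 counts in every library and -0.12 with the clock score, C3ar1 was -0.028 with limma voom, and C5ar1 was -0.11 with the clock score. In CKD-Oxf against CKD-vehicle, limma voom gave C7 0.14 and C5ar1 -0.020, no filter gave C5ar1 -0.0060, and the clock score gave C1qa 0.091, C1qb 0.17, C7 0.28 and Serping1 0.095. In sham-Oxf against sham-vehicle, limma voom gave C1qc -0.0098, and the clock score gave C1qa 0.058 and C5ar1 0.038. In CKD-Oxf against sham-Oxf limma voom gave C1qc 0.18. For the interaction, limma voom gave C1qb -0.022 and C1qc 0.20, and the clock score gave C1qa 0.033 and C1qc 0.045. For Oxf averaged over surgery, no filter gave C4b -0.016, and the clock score gave C1qa 0.074, C1qb 0.0018, C3 0.10, C4b -0.15 and C5ar1 0.22. For CKD averaged over gavage, C4b was -0.015 with DESeq2, -0.016 with DESeq2 size factors, -0.030 with upper quartile scaling, -0.023 with at least 10 counts in every library and -0.045 with limma voom, which also gave C1qc 0.079 and C7 0.036, and no filter gave C7 0.0037.

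Leaving out a mouse changed the sign in 86 of 1260 values of the members, in 24 of 63 results. Their ranges, in CKD-vehicle against sham-vehicle, were C1qa -0.037 to 0.27, C1qb -0.16 to 0.13, C1qc -0.15 to 0.0067, C3 -0.30 to 0.015, C3ar1 -0.17 to 0.13 and C5ar1 -0.019 to 0.17. In CKD-Oxf against CKD-vehicle they were C1qa -0.33 to 0.013, C1qb -0.20 to 0.084, C5ar1 -0.070 to 0.12 and C7 -0.19 to 0.12. In CKD-Oxf against sham-Oxf they were C1qa -0.083 to 0.36, C1qc -0.32 to 0.10, C3ar1 -0.062 to 0.54 and Serping1 -0.069 to 0.35, and in sham-Oxf against sham-vehicle C1qa -0.38 to 0.040. For the interaction they were C1qa -0.22 to 0.22, C1qc -0.30 to 0.12 and C3ar1 -0.11 to 0.52. For CKD averaged over gavage they were C1qc -0.17 to 0.040, C3ar1 -0.0061 to 0.28, C4b -0.11 to 0.095, C7 -0.12 to 0.074 and Serping1 -0.11 to 0.080, and for Oxf averaged over surgery C4b -0.11 to 0.099.

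Without sham-Oxf replicate 1, r changed sign for C1qc with C3ar1 (0.67) and for the clock score with C4b (-0.0097) and with C3ar1 (-0.27). The log2 ratio in CKD-Oxf against sham-Oxf changed from -0.37 to 0.027 for C1qc to C1qb and from -0.20 to 0.035 for C1qc to C1qa. The level of C1qc per length rose to 14.97 RPKM over its longest transcript.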
